A study of Mus musculus with 16 samples.

Results

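The MHC class II presentation genes described here are 9 mouse genes: the chain genes H2-Aa, H2-Ab1 and H2-Eb1, the invariant chain gene Cd74, the peptide-loading genes H2-DMa, H2-DMb1, H2-Oa and H2-Ob, and the transactivator gene Ciita. They were chosen by gene name through each probe's accession, and 11 of the 55681 probes read them. All 9 passed the filter on dim probes and were among the 14674 genes tested, out of 20663 named genes. The study measured RNA of CD4+ T cells from the spleen on 16 one-colour Agilent arrays, 1 array per sample. All mice were male, 8 to 10 weeks old, and all carried a Cre recombinase driven by the CD4 promoter.

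The NTN_CD4xNEMO (2 arrays) and CD4xNEMO (2 arrays) groups carried that Cre with NEMOfl/fl alleles, with and without nephrotoxic serum nephritis (NTN). The NTN_CD4xIKK2 (3 arrays) and CD4xIKK2 (3 arrays) groups carried it with IKK2fl/fl alleles, again with and without NTN. The NTN_CD4cre (3 arrays) and CD4cre (3 arrays) groups carried the Cre without a floxed allele named in their labels. NTN was a kidney inflammation started by injecting 2.5 mg of a sheep serum toxic to the kidney for each gram of weight, and organs were taken on day 10. IKK2 and NEMO are the catalytic and the regulatory subunit of the kinase that activates canonical NF-kB signalling. The Cre driver limits deletion to cells that have used the CD4 promoter, so cells in a sample that never used it keep the floxed gene. Which of the other cell types had used it was not checked here. The cells were enriched with a CD4+ T cell isolation kit and then sorted by flow cytometry.

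MHC class II molecules are pairs of an alpha and a beta chain that show peptides from the endosomal route to CD4+ T cells. The invariant chain escorts new pairs to the endosome and fills their groove. H2-DM then exchanges the remaining piece of it for peptide, and H2-O restrains H2-DM. Ciita is the coactivator that switches the family on. B cells and dendritic cells use most of the family all the time, whereas mouse T cells are known for making little of it.

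Levels are log2 of the scanner's processed signal minus the 75th percentile of the same array, so a level of 0 equals that percentile. Different probes bind with different strength, so levels were compared between arrays and not between genes. On these arrays no spot was saturated, and 48.9% to 59.8% of spots exceeded background clearly by the scanner's flag. Arrays of a group correlated at 0.971 to 0.993 over the genes tested. Cd4 and Cd3e, which define the sorted cells, ranged over 5.86 to 6.19 and over 6.66 to 7.14 on the 16 arrays. The probe named for Ikbkb, the gene of IKK2, lay at 2.91 to 3.02 in NTN_CD4xIKK2 and 3.18 to 3.45 in NTN_CD4cre, and the difference of -0.34 did not pass the test (limma, adjusted p = 0.133). Without NTN it lay at 2.88 to 3.31 in CD4xIKK2 and 3.29 to 3.31 in CD4cre (adjusted p = 0.162). The probe named for Ikbkg, the gene of NEMO, lay at -0.71 to -0.59 in NTN_CD4xNEMO and -0.40 to -0.26 in NTN_CD4cre (adjusted p = 0.0195), and at -0.94 to -0.74 in CD4xNEMO and -0.85 to -0.52 in CD4cre (adjusted p = 0.337). In the genotype where it was not the target, Ikbkb was lower in CD4xNEMO than in CD4cre by -0.35 (adjusted p = 0.0371) and in NTN_CD4xNEMO than in NTN_CD4cre by -0.48 (adjusted p = 0.00653), and Ikbkg was higher in CD4xIKK2 than in CD4cre by 0.68 (adjusted p = 0.00153). Neither probe was placed relative to the deleted exons, so these values do not check the deletion.

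The arrays lay on 3 slides, and this touches every comparison below. Slide 1 held NTN_CD4xIKK2, CD4xIKK2 replicates 1 and 2, and NTN_CD4cre. Slide 2 held CD4xIKK2 replicate 3 and CD4cre. Slide 3 held the 4 NEMO arrays and nothing else, so slide and NEMO genotype cannot be told apart.

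Promoter sequence is shown for the genes with a RefSeq entry, because class II genes are known for a shared pair of elements, an X box and a Y box, through which Ciita acts. RefSeq windows (GRCm38.p6, 250 bases before to 50 after the gene start) matched 6 of the 9 genes with 7 windows. The Y box was searched as TGATTGG and the X box by a loose core, CNNGNAAC, both on either strand, after the sequences had been looked at. The core alone was in 39.1% of 32851 windows of all genes, the Y box in 7.82%, and the core followed by the Y box on 1 strand with 10 to 40 bases between them in 0.244% (80 windows). The ordered pair was present in 5 of the 6 genes, with 23 to 26 bases between the elements. In the lines below, each 5′ to 3′ on the gene's strand, capitals mark the X core and then the Y box.
H2-Aa: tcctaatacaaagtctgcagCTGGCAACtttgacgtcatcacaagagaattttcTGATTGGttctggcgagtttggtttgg
H2-Eb1: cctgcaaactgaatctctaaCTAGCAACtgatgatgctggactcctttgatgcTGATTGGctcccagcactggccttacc
H2-DMb1: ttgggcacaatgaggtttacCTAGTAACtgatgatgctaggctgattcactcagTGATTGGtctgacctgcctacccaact
H2-Oa: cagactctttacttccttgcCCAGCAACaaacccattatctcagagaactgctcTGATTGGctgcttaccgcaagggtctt
H2-Ob: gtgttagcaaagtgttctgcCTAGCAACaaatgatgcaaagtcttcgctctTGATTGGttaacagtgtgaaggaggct
These stretches lie at chr17:34287847-34287927 on the minus strand for H2-Aa, and on the plus strand at chr17:34305753-34305832 for H2-Eb1, chr17:34153074-34153154 for H2-DMb1, chr17:34092280-34092360 for H2-Oa and chr17:34238795-34238872 for H2-Ob. Both H2-DMa windows held the X core and no TGATTGG. A match is a description of these letters only. The 5 genes with the pair include 3 that varied widely over the arrays, H2-Oa with a smaller range, and H2-Ob, whose levels ran a different course.

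The chain genes come first. H2-Aa encodes the alpha chain of the I-A molecule. It read 3.63 and 3.83 in NTN_CD4xNEMO and 3.44 and 3.22 in CD4xNEMO. It read 3.05, 3.29 and 2.55 in NTN_CD4xIKK2 and 2.87, 3.4 and 3.35 in CD4xIKK2. It read -1.14, 3.26 and 2.21 in NTN_CD4cre and -1.21, 0.57 and -0.47 in CD4cre. All arrays of both knockouts were high, the 3 CD4cre arrays were low, and NTN_CD4cre was split, with replicate 1 at the CD4cre level and the other 2 arrays near or at the knockout level. The whole range was 5.03 on the log2 scale, or 32.8-fold.

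H2-Ab1, the beta chain partner of H2-Aa, was read by 2 probes. Probe A_55_P1962747, which stood for the gene in the test, read 6.77 and 6.88 in NTN_CD4xNEMO and 6.63 and 6.22 in CD4xNEMO. The same probe read 6.03, 6.03 and 5.48 in NTN_CD4xIKK2 and 5.92, 6.10 and 6.41 in CD4xIKK2. Its values were 1.92, 6.12 and 5.14 in NTN_CD4cre and 1.82, 3.77 and 2.64 in CD4cre. The same 4 arrays were low, and the range was 5.06 (33.4-fold). The second probe, A_55_P2146560, ran over 1.87 to 6.74 with the same 4 arrays lowest.

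H2-Eb1 encodes the beta chain of the I-E molecule. It read 6.62 and 6.69 in NTN_CD4xNEMO and 6.48 and 6.14 in CD4xNEMO. Its values were 6.12, 6.14 and 5.66 in NTN_CD4xIKK2 and 5.99, 6.51 and 6.47 in CD4xIKK2. In NTN_CD4cre it read 1.98, 6.26 and 5.12, and in CD4cre 2.12, 3.70 and 2.61. Here NTN_CD4cre replicate 1 was the lowest array of all 16, and the range was 4.71 (26.2-fold).

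Cd74, the invariant chain, read 5.63 and 5.75 in NTN_CD4xNEMO and 5.29 and 5.03 in CD4xNEMO. It read 4.94, 5.07 and 4.52 in NTN_CD4xIKK2 and 4.95, 5.30 and 5.24 in CD4xIKK2. In NTN_CD4cre it read 1.88, 5.00 and 4.09, and in CD4cre 1.66, 2.59 and 1.93. The split of the arrays was the one seen for the chain genes, with NTN_CD4cre replicate 1 among the CD4cre arrays and a range of 4.09 (17-fold).

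The loading genes did not share a course. H2-DMb1, the beta chain of H2-DM, read 2.87 and 2.94 in NTN_CD4xNEMO and 2.53 and 2.24 in CD4xNEMO. It read 2.16, 2.56 and 1.88 in NTN_CD4xIKK2 and 2.10, 2.44 and 2.46 in CD4xIKK2. It read -0.71, 2.26 and 1.46 in NTN_CD4cre and -1.76, 0.09 and -0.69 in CD4cre. Its 4 lowest arrays were again the CD4cre arrays and NTN_CD4cre replicate 1. H2-DMb1 has a near-identical neighbour, H2-DMb2, and which of the copies the probe reads is uncertain.

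H2-DMa, the alpha chain that pairs with H2-DMb1, read 2.10 and 2.18 in NTN_CD4xNEMO and 1.96 and 1.71 in CD4xNEMO. It read 2.06, 2.25 and 2.01 in NTN_CD4xIKK2 and 2.03, 1.93 and 2.05 in CD4xIKK2. It read 2.09, 2.44 and 2.12 in NTN_CD4cre and 1.81, 1.71 and 1.60 in CD4cre. Its whole range was 0.85 (1.80-fold), the smallest of the 9 genes, and NTN_CD4cre replicate 1 stood with the other NTN_CD4cre arrays rather than with CD4cre.

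H2-Oa, the alpha chain of H2-O, read 2.06 and 2.16 in NTN_CD4xNEMO and 1.98 and 1.73 in CD4xNEMO. Its values were 1.68, 1.70 and 1.45 in NTN_CD4xIKK2 and 1.77, 1.77 and 1.87 in CD4xIKK2. In NTN_CD4cre it read 1.01, 2.06 and 1.54, and in CD4cre 0.75, 1.14 and 0.93. The order of the arrays was close to that of the chain genes, over a range of 1.40 (2.65-fold), and NTN_CD4cre replicate 1 lay between CD4cre replicates 2 and 3.

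H2-Ob, the beta chain of H2-O, followed another course, and both of its probes showed it. Probe A_55_P2082929 read 1.0 and 0.89 in NTN_CD4xNEMO and 1.39 and 1.46 in CD4xNEMO. It read 2.49, 2.87 and 2.73 in NTN_CD4xIKK2 and 2.85, 2.57 and 2.57 in CD4xIKK2, and 2.64, 2.98 and 2.67 in NTN_CD4cre against 2.52, 2.79 and 2.59 in CD4cre. The 4 NEMO arrays lay below all 12 others, and the other 12 arrays overlapped. Probe A_66_P130916 read 0.40 and 0.56 in NTN_CD4xNEMO and 0.68 and 0.90 in CD4xNEMO, and its other 12 values lay at 2.06 to 2.63.

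**Figure D1:**
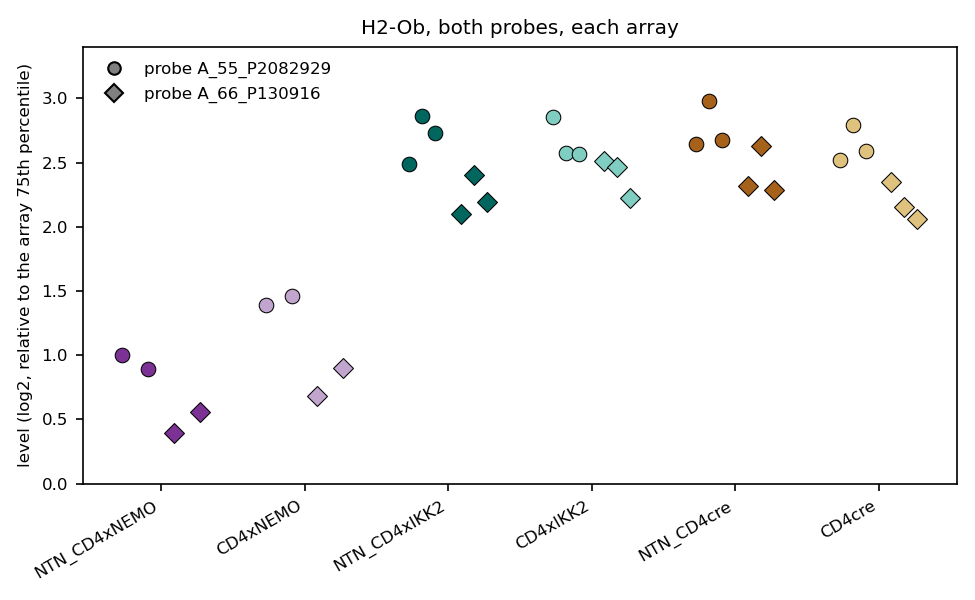
Levels of both H2-Ob probes (circles and diamonds) on each of the 16 arrays by group, in log2 relative to the array's 75th percentile. On either probe the 4 NEMO arrays lie at or below 1.46 and the other 12 at or above 2.06.

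Ciita, the transactivator, was the dimmest of the probes. It read -2.29 and -2.10 in NTN_CD4xNEMO and -2.50 and -2.16 in CD4xNEMO. It read -2.41, -2.34 and -2.74 in NTN_CD4xIKK2 and -2.66, -2.58 and -2.67 in CD4xIKK2. It read -4.22, -2.51 and -2.19 in NTN_CD4cre and -3.68, -5.12 and -4.22 in CD4cre. The probe was well above background on 14 of 16 arrays, the exceptions being NTN_CD4cre replicate 1 and CD4cre replicate 2, so the values of those 2 arrays are near the background and the low end of its range of 3.02 is not firm. Its low arrays were nevertheless the same 4 as for the chain genes.

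**Figure D2:**
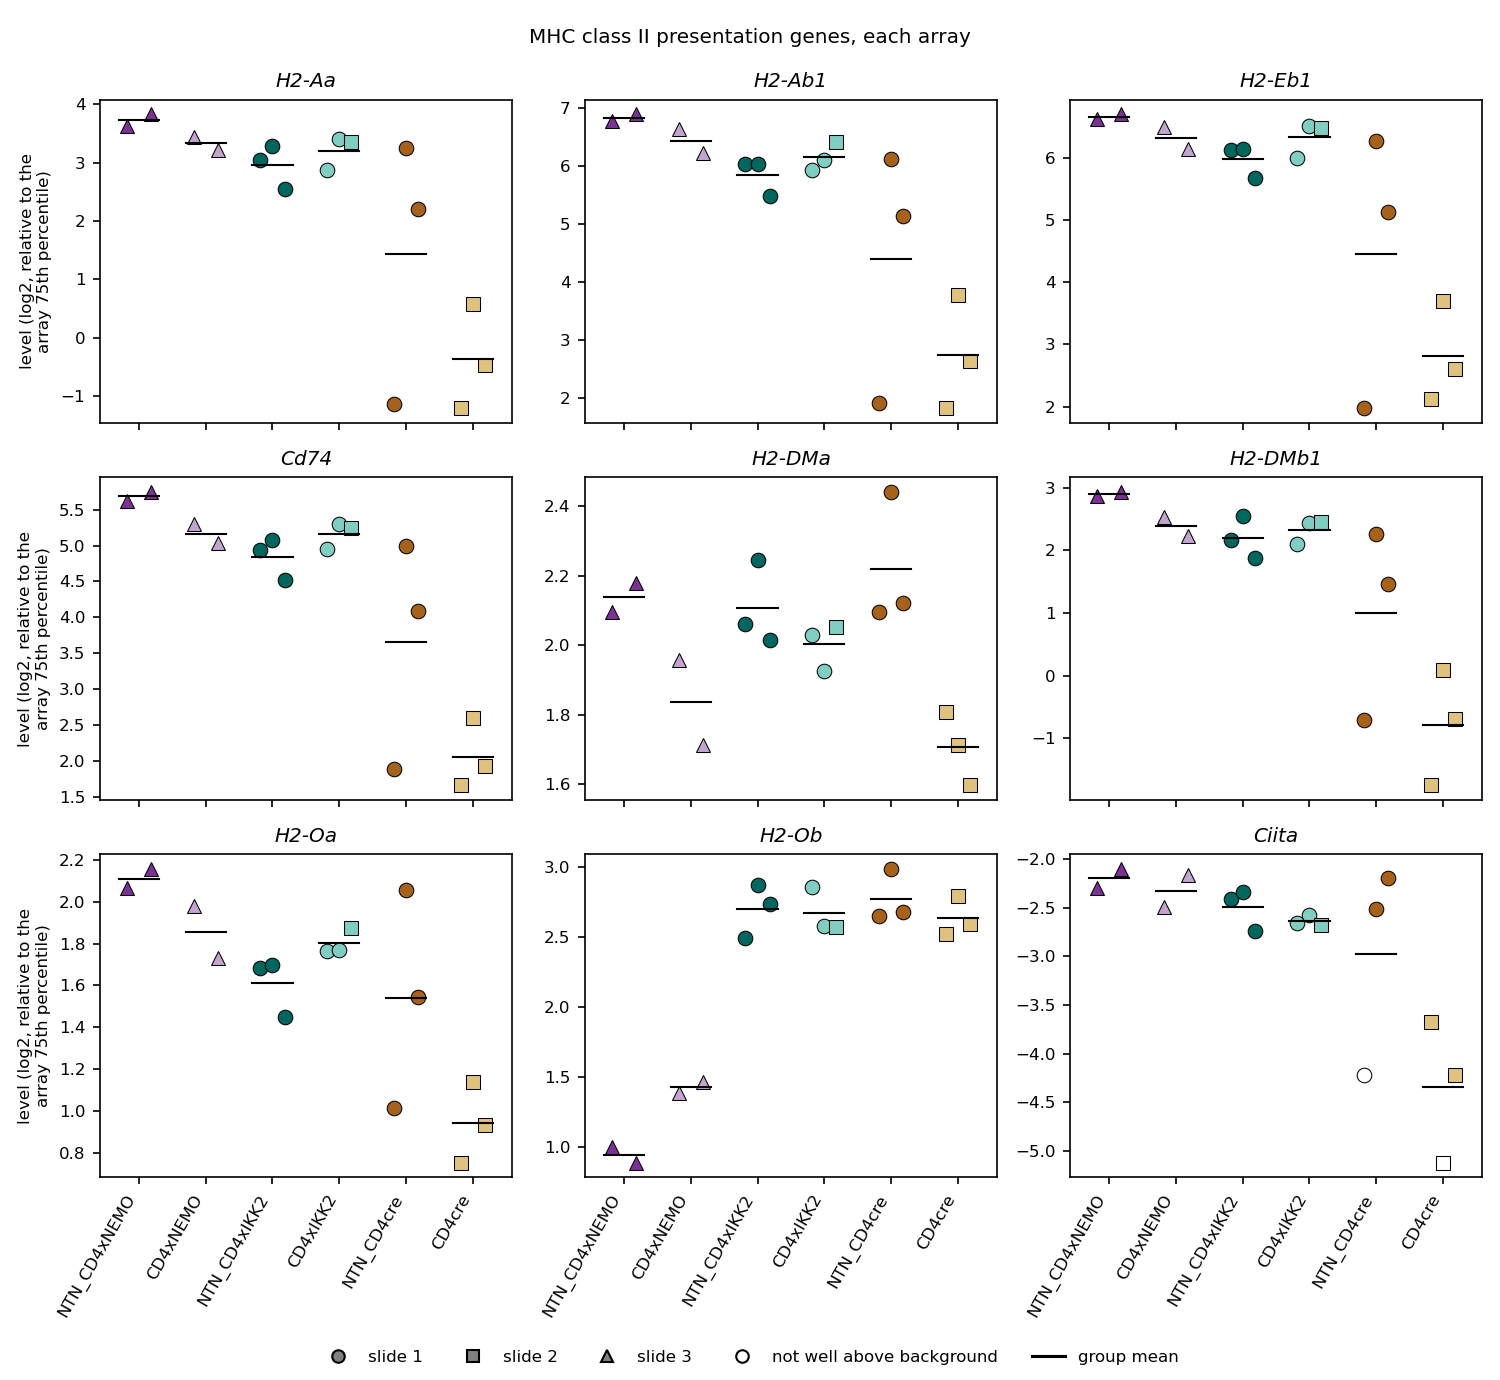
Level of each of the 9 genes (1 probe per gene) on each array by group, in log2 relative to the array's 75th percentile, where marker shape gives the slide, open markers are not well above background, and lines are group means. H2-Aa, H2-Ab1, H2-Eb1, Cd74, H2-DMb1, H2-Oa and Ciita are low in CD4cre and in NTN_CD4cre replicate 1, H2-DMa varies little, and H2-Ob is low in the 4 NEMO arrays.

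The first question was whether the genes differed between CD4xIKK2 and CD4cre in mice without NTN. All values are of bulk RNA of the sorted samples, and which cells in a sample carried it was not tested. In the CD4xIKK2 samples 7 of the 9 genes were higher than in CD4cre (limma over the 16 arrays, Benjamini-Hochberg adjusted p under 0.05). Of all genes, 10% were called higher and 14.6% in either direction. H2-Aa averaged 3.21 ± 0.29 in CD4xIKK2 and -0.37 ± 0.89 in CD4cre (SD, n = 3 each), a difference of 3.58 ± 0.85 (SE), or 11.9-fold (limma adjusted p = 0.0173). Cd74 averaged 5.16 ± 0.19 in CD4xIKK2 and 2.06 ± 0.48 in CD4cre, 8.58-fold higher (adjusted p = 0.00585). The 3 CD4xIKK2 arrays lay above the 3 CD4cre arrays for 8 of the 9 genes. Here and below, how many of all genes separated in this way was not counted.

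H2-Ab1 was 10.6-fold higher in CD4xIKK2 (adjusted p = 0.0191), and its second probe gave a difference of 3.42 with an adjusted p of 0.0198 over all probes, of which 11% were called. H2-Eb1 was 11.4-fold higher (adjusted p = 0.0153) and H2-DMb1 8.68-fold higher (adjusted p = 0.00788). H2-Oa was 1.82-fold higher (adjusted p = 0.0175). Ciita, above background on 2 of 3 CD4cre arrays, had a difference of 1.70 (adjusted p = 0.0285), but of 0.48 with normexp background correction (adjusted p = 0.0629), 0.73 in the deposited log2 matrix (adjusted p = 0.0113) and 1.31 without the dim array, CD4cre replicate 2 (adjusted p = 0.1). The remaining genes were H2-DMa, with a difference of 0.30 ± 0.11 (adjusted p = 0.0889), and H2-Ob, with 0.03 ± 0.13 (adjusted p = 0.901). The median difference over the 9 genes was 3.1, where that over all genes was 0.05.

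The difference in CD4xIKK2 lay partly across slides. With slide as a block, the differences of the 7 genes were between 0.93 and 3.72 and none passed (adjusted p from 0.0613 to 0.19, with 5.12% of all genes called). On slide 2 alone, with 1 CD4xIKK2 array against the 3 CD4cre arrays, the differences were the same as with the block, and none passed either (adjusted p from 0.0624 to 0.305, with 1.37% of all genes called), where the lone array was assumed to vary like the CD4cre arrays. Leaving out CD4cre replicate 1, or replicate 3, left 3 members past the threshold, with 11% and 8.61% of all genes called. For all tests here, nothing in the labels ties arrays to individual mice. The p-values therefore rest on array-to-array spread that may be technical, and the number of arrays limits precision.

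The same comparison was made in mice with NTN, within slide 1. No member passed the test in NTN_CD4xIKK2 against NTN_CD4cre (limma), where 2.58% of all genes were called, and none had an unadjusted p under 0.05 or passed in the deposited log2 matrix. H2-Aa averaged 2.96 ± 0.38 in NTN_CD4xIKK2 and 1.44 ± 2.30 in NTN_CD4cre (SD, n = 3 each), a difference of 1.52 ± 0.85 (SE; limma adjusted p = 0.363). The spread in NTN_CD4cre is the split of that group. Without NTN_CD4cre replicate 1 the difference of H2-Aa was 0.23 ± 0.45 and the median over the 9 genes 0.22, against 1.19 with it, and again no member passed (1.72% of all genes called).

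The CD4xNEMO groups were compared with CD4cre next. In the CD4xNEMO samples without NTN, 7 of the 9 genes were higher than in CD4cre and H2-Ob was lower (limma). Of all genes, 21% were called higher, 22% lower and 43% in either direction. These comparisons share the CD4cre arrays with those of CD4xIKK2. H2-Aa averaged 3.33 ± 0.16 (SD, n = 2) in CD4xNEMO and -0.37 ± 0.89 (n = 3) in CD4cre, 13.0-fold higher (limma adjusted p = 0.00799). H2-Ab1 was 12.8-fold higher (adjusted p = 0.00713), H2-Eb1 11.4-fold (adjusted p = 0.00837), H2-DMb1 9.01-fold (adjusted p = 0.00326) and Cd74 8.59-fold (adjusted p = 0.00238).

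H2-Oa was 1.88-fold higher in CD4xNEMO (adjusted p = 0.00711). Ciita was higher by 2.01 (adjusted p = 0.00746), but by 0.50 with normexp background correction (adjusted p = 0.0312), by 0.98 in the deposited log2 matrix (adjusted p = 0.00081) and by 1.62 without CD4cre replicate 2 (adjusted p = 0.0266). Without CD4xNEMO replicate 2 its difference of 1.84 did not pass (adjusted p = 0.0593). H2-DMa differed by 0.13 ± 0.12 (adjusted p = 0.420). Without CD4xNEMO replicate 1, the 3 genes called higher were Cd74, H2-DMb1 and Ciita, and H2-Ob was again called lower, with 29.7% of all genes called. H2-Ob averaged 1.43 ± 0.05 in CD4xNEMO and 2.63 ± 0.14 in CD4cre, 2.31-fold lower (limma adjusted p = 4e-05), and its second probe differed by -1.40 (adjusted p = 2.84e-05 over all probes, of which 38.8% were called).

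With NTN, 3 genes were higher in NTN_CD4xNEMO than in NTN_CD4cre, and H2-Ob was lower, with 18.8% of all genes called higher, 29.6% lower and 48.4% in either direction. Cd74 averaged 5.69 ± 0.09 (SD, n = 2) in NTN_CD4xNEMO and 3.66 ± 1.60 (n = 3) in NTN_CD4cre, 4.09-fold higher (limma adjusted p = 0.0218). H2-DMb1 was 3.73-fold higher (adjusted p = 0.0404) and H2-Ab1 5.42-fold (adjusted p = 0.0461), although over all probes neither H2-Ab1 probe passed (adjusted p = 0.0523 and 0.0507, with 41% of probes called). H2-Aa, H2-Eb1 and H2-Oa had differences of 2.29, 2.21 and 0.57 with adjusted p from 0.0573 to 0.0650. The 2 NTN_CD4xNEMO arrays lay above all 3 NTN_CD4cre arrays for 6 genes, a separation not counted over all genes.

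Single arrays decided those calls. Without NTN_CD4cre replicate 1, Cd74 was the 1 gene still higher in NTN_CD4xNEMO, with a difference of 1.15 ± 0.33 (limma adjusted p = 0.0181) against 2.03 with it, and 41.2% of all genes were called. Without NTN_CD4cre replicate 2, 7 members passed, with 43.2% of all genes called, and Cd74 differed by 2.70. Leaving out NTN_CD4xNEMO replicate 1 or replicate 2 left 1 member, with 35% and 32.8% of all genes called. In the deposited log2 matrix 6 members passed, with 41.5% of all genes called. H2-Ob did not share this. It averaged 0.95 ± 0.08 in NTN_CD4xNEMO and 2.77 ± 0.19 in NTN_CD4cre, 3.53-fold lower (adjusted p = 2.21e-06), with a range of -1.88 to -1.64 for the log2 difference over 13 alternatives.

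The knockouts were then set against each other, with the NEMO arrays on a slide of their own. In CD4xNEMO against CD4xIKK2 the 1 member called was H2-Ob, 2.36-fold lower (limma adjusted p = 5.36e-05), with 19.9% of all genes called lower and 35.3% in either direction. In NTN_CD4xNEMO against NTN_CD4xIKK2 it was again H2-Ob alone, 3.37-fold lower (adjusted p = 2.81e-06), with 27.2% of all genes called lower and 46.1% in either direction. The other 8 genes differed by -0.17 to 0.31 without NTN and by 0.03 to 0.98 with NTN. With NTN the NEMO arrays lay above all 3 IKK2 arrays for 7 genes without a call, a separation not counted over all genes. When only these 5 NTN arrays entered the fit, 6 members passed, with 49.7% of all genes called. The fit over all arrays uses 1 spread per gene for all groups, although the groups differed in spread. For H2-Ab1 the SD was 0.08 in NTN_CD4xNEMO and 0.32 in NTN_CD4xIKK2, but 2.20 in NTN_CD4cre, which is not part of this comparison. In that fit the chain genes had standard errors of 0.91 to 0.95 here, so differences of the size of H2-Ab1's 0.98 were not detectable in it.

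**Figure D3:**
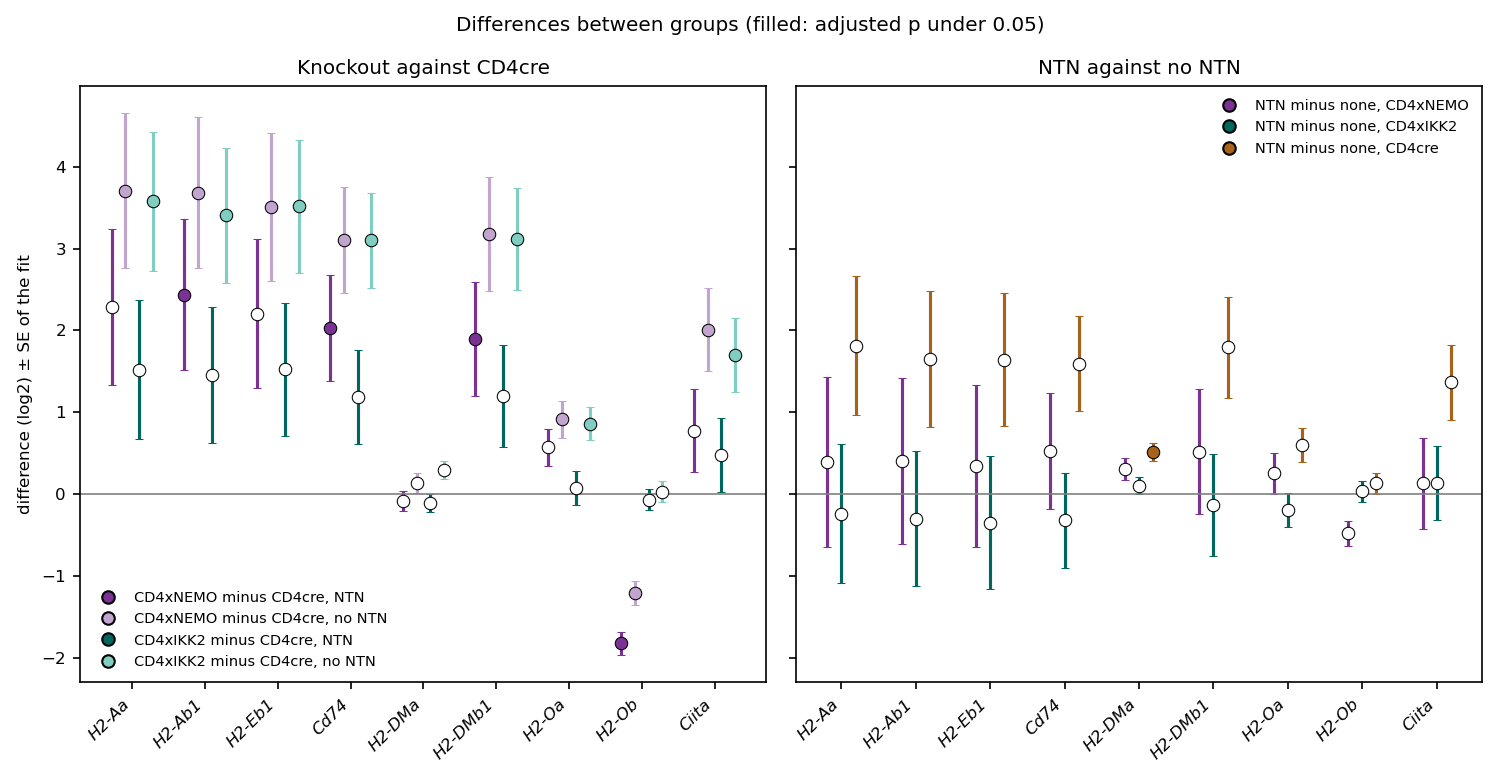
Differences (log2, ± SE of the fit) of the 9 genes for each knockout against CD4cre (left) and for NTN against no NTN (right); filled points have an adjusted p under 0.05. The differences without NTN reach 3.71 in CD4xNEMO and 3.58 in CD4xIKK2, H2-Ob alone lies below -1, and H2-DMa in CD4cre is the 1 filled point on the right.

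The last question was whether the genes differed between NTN and no NTN within each genotype. In the CD4cre genotype 1 of the 9 genes was called, and it was higher with NTN. Of all genes, 2.57% were called higher and 4.03% in either direction. H2-DMa averaged 2.22 ± 0.19 in NTN_CD4cre and 1.71 ± 0.11 in CD4cre (SD, n = 3 each), 1.43-fold higher (limma adjusted p = 0.0295), with all 3 NTN arrays above all 3 others. The chain genes, Cd74, H2-DMb1 and Ciita had differences of 1.36 to 1.81 and did not pass (adjusted p from 0.104 to 0.239). H2-Oa had a difference of 0.60 (adjusted p = 0.111) and H2-Ob of 0.13 (adjusted p = 0.533), and 5 members had an unadjusted p under 0.05.

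The outcome of this comparison depended on NTN_CD4cre replicate 1. Without it 8 of the 9 genes were higher in NTN_CD4cre, H2-Aa by 3.11 ± 0.45 (limma adjusted p = 0.00386) and Cd74 by 2.48 ± 0.30 (adjusted p = 0.00204), with 5.77% of all genes called. H2-Ob was the gene not called. The groups also lay on different slides, and with slide as a block, estimable here only because CD4xIKK2 arrays lay on both slides, no member passed, 0.0136% of all genes were called and H2-DMa had an adjusted p of 0.3.

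In the CD4xIKK2 genotype no member passed between NTN_CD4xIKK2 and CD4xIKK2 (limma). There 0.443% of all genes were called, and no member had an unadjusted p under 0.05. The differences ran from -0.35 to 0.14. In the CD4xNEMO genotype no member passed between NTN_CD4xNEMO and CD4xNEMO either. Called were 0.416% of all genes, and 2 members had an unadjusted p under 0.05. H2-Ob differed by -0.48 ± 0.16 there (adjusted p = 0.422), and the other 8 genes by 0.13 to 0.52. Both NTN arrays lay above both others for 7 of the genes, which was not counted over all genes and is easily met with 2 arrays on each side. In the deposited log2 matrix no member passed in either genotype.

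The response to NTN was also compared between genotypes. No member's response differed between CD4xIKK2 and CD4cre (limma, 1.14% of all genes called, 3 members at an unadjusted p under 0.05), nor between CD4xNEMO and CD4cre (0.266% called, 1 member at an unadjusted p under 0.05), and the deposited matrix gave no call in either. The median over the 9 genes was -1.92 for CD4xIKK2 minus CD4cre and -1.23 for CD4xNEMO minus CD4cre. Without NTN_CD4cre replicate 1, 7 genes had a smaller response in CD4xIKK2 than in CD4cre, with 2.67% of all genes called, H2-Aa by -3.35 ± 0.61 (limma adjusted p = 0.0209). These contrasts use the CD4cre arrays of both slides.

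The 5 genes with the widest ranges varied together. Since the arrays fall into 4 low and 12 high ones, correlations were taken on deviations from each group's mean, without the split NTN_CD4cre group. The CD4cre arrays weigh most in this measure, since H2-Aa had an SD of 0.89 in CD4cre and 0.14 to 0.38 in the knockout groups. H2-Aa, H2-Ab1, H2-Eb1, Cd74 and H2-DMb1 correlated pairwise at 0.920 to 0.983 over these 13 arrays, which share slides. H2-Oa correlated with them at 0.859 to 0.912 on that measure, H2-DMa at 0.02 to 0.23 and H2-Ob at 0.18 to 0.37. Ciita correlated with them at -0.80 to -0.62 without the NTN_CD4cre arrays but at 0.374 to 0.557 with all 16 arrays on the same measure, so its sign rests on that group, and the CD4cre array where its probe was not above background had the highest chain gene levels of its group.

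The members are near neighbours on chromosome 17, except Cd74 and Ciita, and other genes lie between them. In the annotated order H2-Oa, Brd2, H2-DMa, H2-DMb2, H2-DMb1, Psmb9, Tap1, Psmb8, Tap2, H2-Ob, H2-Ab1, H2-Aa, H2-Eb1, the class I genes Psmb9, Tap1, Psmb8 and Tap2 ranged over 0.39 to 0.74 on the 16 arrays. These 4 encode immunoproteasome subunits and the peptide transporter, and of the 4 Tap2 alone passed in any of 3 comparisons with CD4cre (CD4xNEMO without and with NTN, and CD4xIKK2 without NTN), with -0.50 in CD4xNEMO and -0.33 in NTN_CD4xNEMO. H2-DMb2, the near copy of H2-DMb1, was higher in CD4xNEMO than in CD4cre by 2.87 and in CD4xIKK2 than in CD4cre by 3.04 without NTN (limma adjusted p = 0.00204 and 0.00382).

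**Figure D4:**
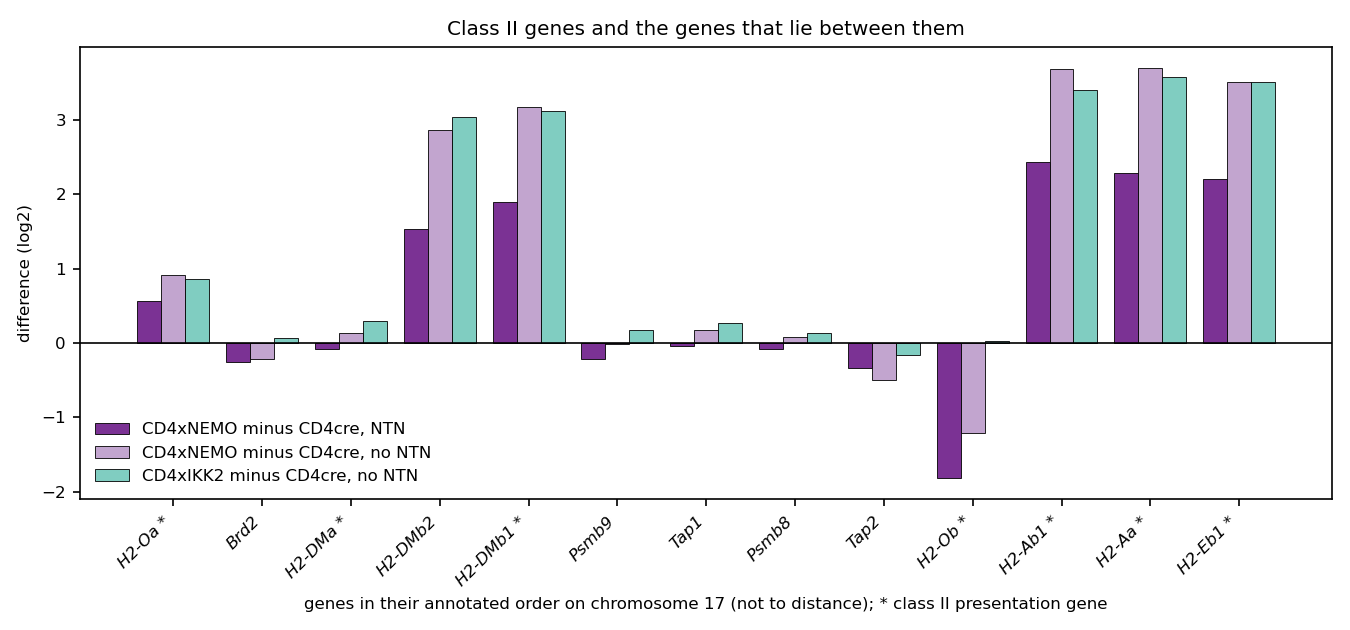
Differences (log2) of the genes from H2-Oa to H2-Eb1 in their annotated order on chromosome 17, for 3 comparisons with CD4cre; bars start at 0 and stars mark the class II presentation genes. Psmb9, Tap1, Psmb8 and Tap2 lie between -0.50 and 0.26, while H2-DMb2, H2-DMb1, H2-Ab1, H2-Aa and H2-Eb1 lie between 2.87 and 3.71 without NTN.

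Other genes of the pathway moved in part. Of 16 measured further class II and processing genes, 9 were higher and 3 lower in CD4xNEMO than in CD4cre, and 7 were higher and none lower in CD4xIKK2 than in CD4cre, both without NTN. That is 75% and 43.8% called, against 43% and 14.6% of all genes. H2-Eb2, another class II beta chain gene, was higher by 3.81 in CD4xNEMO and by 3.67 in CD4xIKK2 (limma adjusted p = 0.00159 and 0.00521). Ctsh, a lysosomal cathepsin, was higher by 3.36 and 2.80, and Ifi30, the thiol reductase of the endosome, by 0.91 and 0.81. With NTN, 8 were higher and 4 lower in NTN_CD4xNEMO than in NTN_CD4cre, which is 75% called against 48.4% of all genes. None passed in NTN_CD4xIKK2, with 2.58% of all genes called.

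Of 20 regulators of the family, 6 were higher and 5 lower in CD4xNEMO than in CD4cre, which is 55% called against 43% of all genes. In CD4xIKK2 5% were called against 14.6% of all genes, and the 1 called gene was Spi1, which encodes PU.1, a factor of B and myeloid cells. Spi1 was not well above background on any CD4cre array. It was at least 2.60-fold higher in CD4xIKK2 and at least 2.15-fold higher in CD4xNEMO, which are lower bounds set by the dimmest signal above background. The limma test used the dim values as read, with log2 differences of 2.68 in CD4xIKK2 (adjusted p = 0.00132) and 2.40 in CD4xNEMO (adjusted p = 0.000625). Ifngr2, a chain of the interferon gamma receptor, was lower by -1.85 in CD4xNEMO than in CD4cre (adjusted p = 1.15e-05) and by -2.33 in NTN_CD4xNEMO than in NTN_CD4cre (adjusted p = 2.21e-06). Ifngr1, its partner chain, was higher by 0.84 in NTN_CD4xNEMO than in NTN_CD4cre (adjusted p = 5.69e-05). Irf8, a factor of B and myeloid cells, was higher by 2.38 in CD4xNEMO (adjusted p = 0.018). Of 15 class I presentation genes, Pdia3 was higher (0.45) and Tap2 lower (-0.50) in CD4xNEMO, and Pdia3 (0.29) and Calr (0.27) were higher in CD4xIKK2, with median differences of 0.03 in both. That is 13.3% called in each, against 43% and 14.6% of all genes.

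Without NTN, many markers of other cell types were higher in both knockouts than in CD4cre, as were most of the class II genes. Between the knockouts with NTN the lists parted. In NTN_CD4xNEMO minus NTN_CD4xIKK2 the median difference was 0.68 for the class II genes and -0.45 for B cell markers. It was 1.24 for macrophage and monocyte markers and 1.11 for dendritic cell markers. Of 17 measured B cell markers, 13 were higher and 1, Cd72, lower in CD4xNEMO than in CD4cre, and 13 were higher and none lower in CD4xIKK2 than in CD4cre. That is 82.4% and 76.5% called, against 43% and 14.6% of all genes. Ms4a1, which encodes the CD20 antigen of B cells, was higher by 3.35 in CD4xNEMO (limma adjusted p = 0.00064) and by 3.70 in CD4xIKK2 (adjusted p = 0.00137). The mean B cell marker level was -0.63 to -0.50 in NTN_CD4xNEMO, -0.44 to -0.34 in CD4xNEMO, -0.71 to -0.17 in NTN_CD4xIKK2 and -0.40 to -0.03 in CD4xIKK2. It was -1.91 to -0.61 in NTN_CD4cre, where replicate 1 was the lowest, and -2.48 to -2.29 in CD4cre. Blk, Pax5 and Ebf1 were not well above background on any CD4cre or NTN_CD4cre array. The mean levels of those groups therefore rest partly on signal near background.

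Of 14 measured macrophage and monocyte markers, 13 were higher in CD4xNEMO and 13 in CD4xIKK2 than in CD4cre. That is 92.9% called in each, against 43% and 14.6% of all genes. Adgre1, the F4/80 antigen, was higher by 4.61 and 4.29 (limma adjusted p = 0.000347 and 0.00215). The mean level was -0.60 to -0.09 in NTN_CD4xNEMO, -0.83 to -0.53 in CD4xNEMO, -1.94 to -1.62 in NTN_CD4xIKK2 and -1.26 to -0.61 in CD4xIKK2. It was -3.84 to -1.54 in NTN_CD4cre and -4.02 to -3.10 in CD4cre. Cd14, Fcgr1 and Ms4a7 were not well above background on any CD4cre array.

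Of 8 measured dendritic cell markers, 7 were higher in CD4xNEMO and 4 in CD4xIKK2 than in CD4cre. That is 87.5% and 50% called, against 43% and 14.6% of all genes. Itgax, the CD11c integrin, was higher by 3.6 and 3.34 (limma adjusted p = 0.00209 and 0.0074), and Batf3, a factor of dendritic cells, by 3.77 and 3.56 (adjusted p = 0.00176 and 0.00619). The mean level was 1.68 to 1.90 in NTN_CD4xNEMO, 1.22 to 1.47 in CD4xNEMO, 0.54 to 1.06 in NTN_CD4xIKK2 and 0.35 to 1.06 in CD4xIKK2. It was -1.95 to 0.81 in NTN_CD4cre and -2.36 to -0.77 in CD4cre.

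The summed linear levels (each array's 75th percentile taken as 1) did not all follow. For B cell markers they were 58.0 to 63.2 in NTN_CD4xNEMO, 35.9 to 42.3 in CD4xNEMO, 30.2 to 48.6 in NTN_CD4xIKK2, 33.3 to 38.5 in CD4xIKK2, 15.8 to 39.1 in NTN_CD4cre and 10.3 to 14.3 in CD4cre. Those of the macrophage markers were 41.6 to 63.9 in NTN_CD4xNEMO, 56.1 to 63.6 in CD4xNEMO, 30.9 to 57.1 in NTN_CD4xIKK2, 41.8 to 61.7 in CD4xIKK2, 31.9 to 62.2 in NTN_CD4cre and 66.8 to 88.9 in CD4cre. Those of the dendritic cell markers were 219.8 to 223 in NTN_CD4xNEMO, 221 to 228 in CD4xNEMO, 197 to 221 in NTN_CD4xIKK2, 166 to 291 in CD4xIKK2, 165 to 203 in NTN_CD4cre and 212 to 303 in CD4cre. The last 2 sums are carried by 1 bright probe each, Itgam at 4.57 to 6.43 and Siglech at 7.30 to 8.23. Xcr1 and Ccl17, which also mark dendritic cells, did not pass the filter on dim probes.

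Of the CD8 T cell markers, Cd8b1 was lower in CD4xNEMO than in CD4cre (-0.87, limma adjusted p = 0.0024) and higher in CD4xIKK2 than in CD4cre (0.62, adjusted p = 0.0265), and with NTN it was lower in NTN_CD4xNEMO than in NTN_CD4cre (-0.91, adjusted p = 0.00165) while Cd8a was higher (1.71, adjusted p = 0.0114). Cd8a was not well above background on any CD4cre array. It was at least 2.96-fold higher in CD4xNEMO and at least 1.74-fold higher in CD4xIKK2, where 2 of 3 arrays measured it. The limma test used the dim values as read, with log2 differences of 2.34 in CD4xNEMO (adjusted p = 0.0021) and 1.57 in CD4xIKK2 (adjusted p = 0.031). The mean level of this pair was -1.37 to -1.12 in NTN_CD4xNEMO, -2.09 to -1.73 in CD4xNEMO, -1.48 to -0.83 in NTN_CD4xIKK2, -1.58 to -1.52 in CD4xIKK2, -2.27 to -1.04 in NTN_CD4cre and -2.78 to -2.53 in CD4cre.

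T cell identity markers had mean levels of 6.80 to 7.09 on all 16 arrays. Of 13, Cd6 was higher and 4 were lower in CD4xNEMO than in CD4cre, with Cd3d, Lck and Cd28 among those lower, and none passed in CD4xIKK2 (limma). In NTN_CD4xNEMO, 5 were lower and none higher than in NTN_CD4cre, with a median difference of -0.23. Called were 38.5% of this list in both NEMO comparisons, against 43% of all genes without NTN and 48.4% with NTN. With NTN, 5 B cell, 5 dendritic cell and 10 macrophage markers were higher in NTN_CD4xNEMO than in NTN_CD4cre, with 2 B cell markers lower. That is 41.2% of the B cell, 62.5% of the dendritic cell and 71.4% of the macrophage list called, against 48.4% of all genes. None of the 3 lists had a call in NTN_CD4xIKK2, with 2.58% of all genes called. Between NTN_CD4cre and CD4cre, 6 B cell and 3 macrophage markers were higher and no dendritic cell marker passed. That is 35.3% of the B cell and 21.4% of the macrophage list called, against 4.03% of all genes. The part of the other cell types' RNA, CD8 T cells included, in the class II differences was not tested. In bulk RNA, a larger share of class II expressing cells and more class II RNA per cell cannot be told apart.

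**Figure D5:**
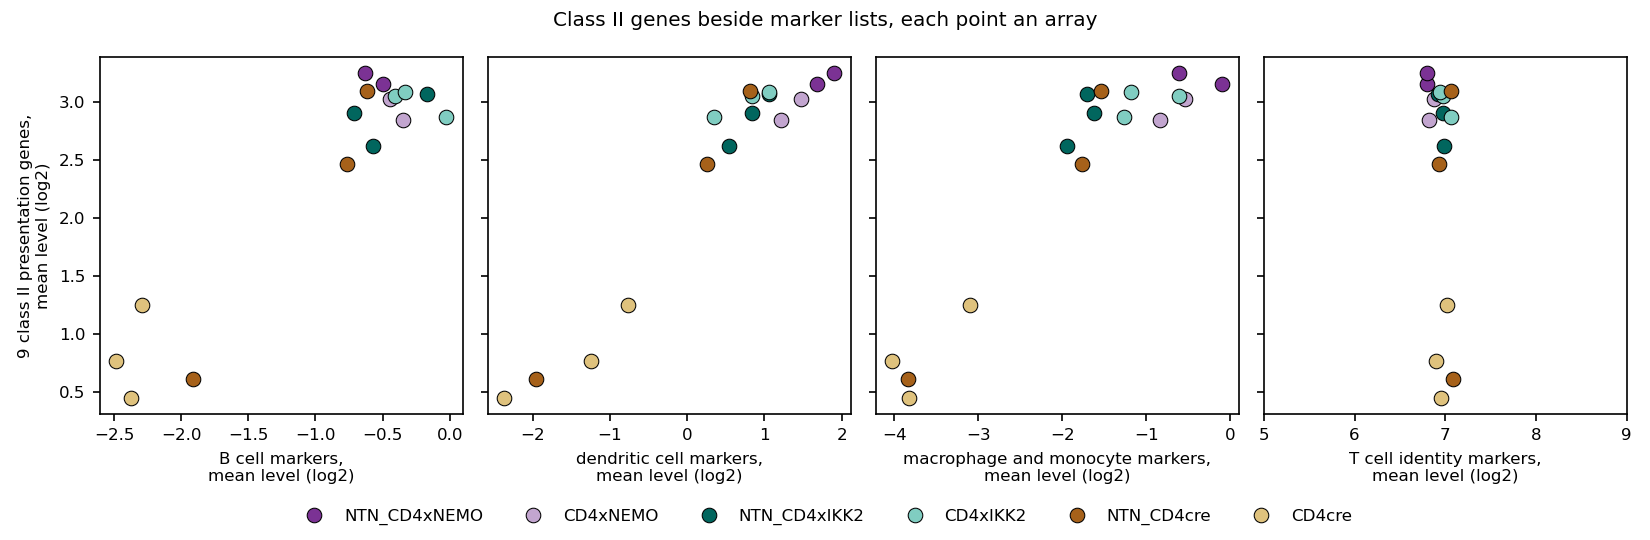
Mean level of the 9 class II presentation genes (vertical, log2) against the mean level of each marker list (horizontal, log2), 1 point per array, coloured by group; the panels have different starting points on the horizontal axis. CD4cre and NTN_CD4cre replicate 1 are low on both axes for the B cell, dendritic cell and macrophage lists, and the T cell list stays at 6.80 to 7.09.

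The 10 genes outside these lists whose course was most like the mean of the 9 members over the 16 arrays had Pearson correlations of 0.984 to 0.991. They were Plbd1, Sirpb1b, Sirpb1a, Gm9733, Napsa, Arhgap22, Pira2, Skint3, Sirpa and Lrrk2. Arrays share the low and high split, and Sirpb1a, Sirpb1b and Gm9733 belong to a family of near-identical copies, so which of these is read is uncertain.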

How the data were processed

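The members, gene lists and contrasts were chosen with earlier results of these data known. Per the file headers, the authors scanned 1-colour Cy3 Agilent arrays and extracted spot intensity with Feature Extraction 10.7.3.1 (the submitters' processing notes name 10.5), design build mm9; the processed intensity is background-subtracted and not normalized between arrays. Spot flags came from the same deposited files. The deposited matrix of log2 values was made by the authors, and neither labels nor headers say how it was normalized. Its columns correlated with log2 median signal at 0.994 or more, with medians of 5.65 to 5.68; its centring is unknown, and it was used as an alternative only.

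From these, log2 processed intensity minus each array's 75th percentile was computed over non-control probes, leaving out outlier spots. Probes were named by accession through RefSeq (27242 of 55681 had 1 gene, 28439 none). Kept were those flagged above background on 2 or more arrays, and the brightest stood for a gene. Group means were fitted over all 16 arrays with limma 3.58.1 in R 4.3.3 (lmFit, eBayes, Benjamini-Hochberg, threshold 0.05), after a test on simulated data. Alternatives were normexp with offset 50 (on the median signal, since no mean signal column was used here), another percentile, quantile normalization, no filter, mean of probes, slide and replicate blocks, the matrix, only the arrays compared, each array left out, and, chosen after seeing the data, single slides and 1 added contrast. Named genes are the 9 members, up to 4 called genes per list with the largest difference, and the 10 most alike; the chromosome 17 neighbours, the targeted genes and Cd4 and Cd3e were added, and Cd28, Cd72, Ifi30 in CD4xNEMO and the genes most like H2-Ob and H2-DMa were named after their values were seen. Figures were drawn with matplotlib. Some genes of the marker lists are not reported here by name.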

Additional observations from a re-analysis of the deposited data

How the results depend on the processing

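Over 99 results of single members, of which 22 passed the threshold, 1512 alternative values were computed. Of these 1390 kept direction and side of the threshold, 52 lost a call and 29 gained one; no value changed sign with a call in either setting, and 41 changed sign without one. The replicate numbers did not pair the arrays, with correlations of deviations from -0.199 to 0.126, and with the replicate number as a block the count of members called was unchanged in each comparison (7 in CD4xIKK2 against CD4cre without NTN, 8 in CD4xNEMO against CD4cre without NTN, 4 with NTN, and 1 for NTN in CD4cre). In the 4 comparisons of NEMO with another genotype H2-Ob passed under all 13 alternatives run for each. For NTN in CD4cre the 1 call became 0 with the percentile taken over probes that every array measured above background, without the filter, with slide as a block and with only the arrays compared, and 0 to 8 with 1 array left out. For CD4xIKK2 against CD4cre without NTN the 7 calls became 0 with slide as a block and 0 on slide 2 alone, and 3 to 6 with 1 array left out. For CD4xNEMO against CD4cre the 8 calls without NTN became 4 to 8 with 1 array left out. The 4 calls with NTN became 6 in the deposited matrix, 1 with only the arrays compared, and 1 to 7 with 1 array left out. For NTN_CD4xNEMO against NTN_CD4xIKK2 the 1 call became 6 with only the arrays compared. The 0 calls for the response of CD4xIKK2 minus CD4cre became 0 to 7 with 1 array left out. Apart from fewer samples or genes in some settings, the causes were not tested. Slide as a block could not be fitted between NEMO and other genotypes. None of the 4 other scalings moved the median of all genes by over 0.1. Counts over all genes changed more, for NTN in CD4cre 167 with normexp against 592, and for CD4xIKK2 against CD4cre without NTN 1366 against 2136. The Ciita probe, near background on 2 arrays, limits what can be said of its lower levels.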

Other observations

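Costimulatory ligands, which presenting cells use beside class II, were measured with 7 genes. In the CD4xNEMO samples Cd40, Icosl, Cd83 and Cd86 were higher than in CD4cre and none lower (limma, 43% of all genes called). In CD4xIKK2 Cd40 alone was called, with 14.6% of all genes called. Cd40, not well above background on any CD4cre array, was at least 8.91-fold higher in CD4xNEMO and at least 10.4-fold higher in CD4xIKK2. The limma test used the dim values as read, with log2 differences of 3.61 in CD4xNEMO (adjusted p = 0.00628) and 3.84 in CD4xIKK2 (adjusted p = 0.00907). Icosl, the ligand of ICOS, was higher by 1.56 in CD4xNEMO than in CD4cre (adjusted p = 4.22e-05) and by 1.33 in NTN_CD4xNEMO than in NTN_CD4cre (adjusted p = 0.000128). Cd86 was lower by -0.74 in NTN_CD4xIKK2 than in NTN_CD4cre (adjusted p = 0.022).

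The genes most like H2-Ob and H2-DMa were looked up after their values were seen. For H2-Ob they were A930005H10Rik, Ggt5, Als2cl, Ndrg2 and Lef1, with Pearson correlations of 0.987 to 0.988 over the 16 arrays, all with the NEMO arrays on their own slide. For H2-DMa the closest were Sirt3, Fcgr1, Snx9, Psap and Snd1, at 0.812 to 0.825.

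The difference of the NTN responses of CD4xNEMO minus CD4xIKK2, added after seeing the data, was called for no member (limma, 37 of 14674 genes called). H2-Ob had the lowest unadjusted p, with -0.51 ± 0.20 (adjusted p = 0.36).

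Tspan32, a tetraspanin on the list of further class II genes, was lower by -2.07 in CD4xNEMO than in CD4cre (limma adjusted p = 1.92e-06) and by -2.31 in NTN_CD4xNEMO than in NTN_CD4cre (adjusted p = 8.59e-07).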
